A study of Mus musculus with 6 samples.

Results

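The genes described here are 10 enzymes that make asparagine, serine, proline and cysteine or pass on the folate-bound carbon units released from serine. They were chosen by name, as enzymes known to be driven by the transcription factor ATF4, with earlier results of these data known. All 10 have a row among the 25239 genes of the authors' deposited table. RNA was sequenced from E14 cells, a mouse embryonic stem cell line, grown in N2B27 medium with LIF and 2i (the cytokine and kinase inhibitors that hold such cells in the naive state). The control group was transfected with a control siRNA and the other group with an siRNA against Ehmt2, the histone H3K9 methyltransferase also called G9a. Every culture received 2 μl of a 40 μM siRNA stock and was collected 3 days later, and each group has 3 libraries. The labels give genotype WT for the control group and a knockdown of EHMT2 for the other, with no further allele. Nothing in the labels says whether the 3 libraries of a group came from separate cultures, so the p-values measure only the spread between these libraries.

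Cells that run short of an amino acid, or whose protein folding is disturbed, phosphorylate the initiation factor eIF2, which slows general translation and favours translation of ATF4. ATF4 then binds, often with C/EBP proteins, to composite elements in genes for amino acid synthesis, uptake and tRNA charging. Serine made from a glycolytic intermediate is split by mitochondrial serine hydroxymethyltransferase into glycine and a carbon unit on folate, and dividing cells such as embryonic stem cells use those units for purines, thymidylate and methylation.

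The available values are 1 comparison of the groups, so no level per library can be given. For each gene the table holds a mean normalized count (reads divided by library size factors, averaged over all 6 libraries), a p-value and a log2 fold change. Every fold change given here comes from the authors' deposited table, and a negative one means a lower level after Ehmt2 siRNA than after control siRNA. A gene is said to have risen or fallen where the Benjamini-Hochberg adjusted p of the authors' DESeq2 comparison, adjusted over 20461 tested genes, was below 0.05. Each 95% interval was computed from the fold change and its p. The read depth of each library is unknown. Ehmt2 stood at a log2 fold change of -1.53, or 34.7% of its control level, and since the table does not state its numerator, the direction was read from this value. Its partner Ehmt1 was at -0.05 and did not pass. All 12 listed embryonic stem cell markers were detected at mean normalized counts of 11777 to 122043 and none passed (adjusted p of the DESeq2 comparison), although an unadjusted p under 0.05 was reached by 2 that were lower and 1 that was higher. Of 10 fibroblast markers, Dcn was listed at 0 and the rest had means of 0.741 to 439. Col1a2, a fibrillar collagen gene, rose by 2.43 at a mean of 110 and was the fibroblast marker that passed. The others with a mean of at least 10, Thy1 (-1.01), Pdgfrb (-0.33) and Col1a1 (-0.39), were lower and did not pass. Of the 9 tested fibroblast markers 5 had a negative fold change. The part of such cells in the results was not tested.

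Of the 10 enzymes, 6 fell, none rose and 4 did not pass in the authors' deposited table. All 10 fold changes were negative. The background share of tested genes that fell was 4.82%, and it was 3.99% among genes whose mean normalized count was 5000 or more, a level that all the enzymes but Aldh1l2 exceed. The share that rose was 5.45% of all tested genes and 5.22% of those at 5000 or more. At an unadjusted p under 0.05 the same comparison gave 8 enzymes lower and 0 higher, where 9.54% of all tested genes were lower and 10.2% higher. The median log2 fold change of the enzymes was -0.32, beside 0.01 over all tested genes. The changes were small: the fitted levels after Ehmt2 siRNA were 69.0% (Aldh1l2) to 93.8% (Asns) of control. In these bulk samples, fewer cells with a transcript and less of it per cell cannot be told apart.

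**Figure D1:**
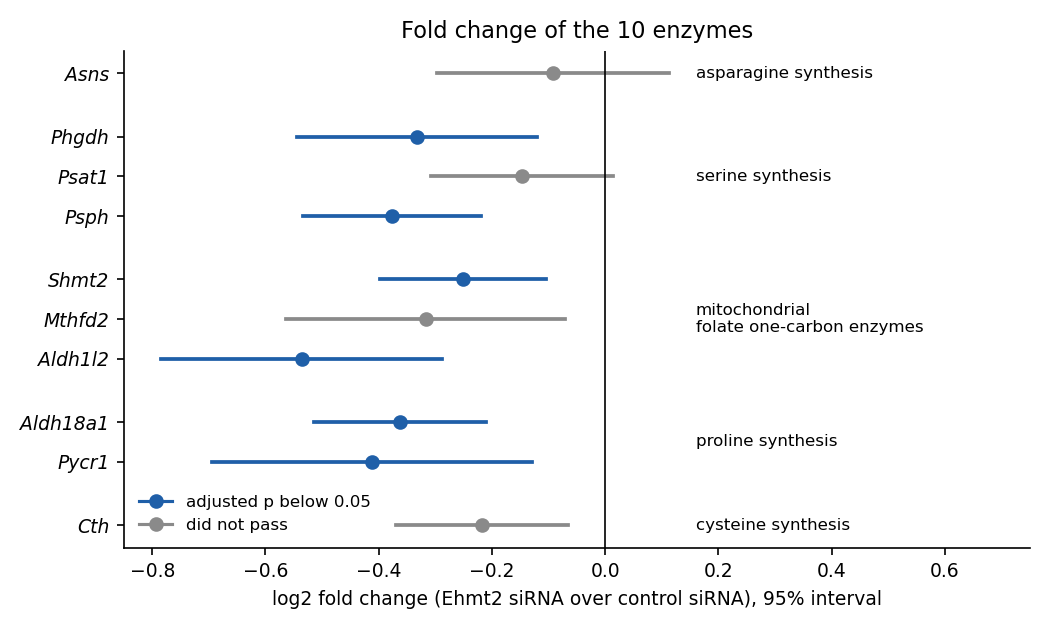
Log2 fold change of each enzyme (horizontal axis, Ehmt2 siRNA over control siRNA) with its 95% interval, ordered by pathway. Points mark the deposited fold changes, blue where the adjusted p is below 0.05 and grey where it is not. Every point lies left of 0, and the intervals of Asns and Psat1 cross 0.

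The promoters of the enzymes are shown because the members were chosen as targets of a factor that binds a known element. RefSeq promoter windows (GRCm38.p6, 250 bases before to 50 after an annotated start) were found for 8 of the 10 genes, in 9 windows. They were searched on both strands for the C/EBP-ATF composite element TGATGNAA, the cAMP response element core TGACGT and the E-box CACGTG, which reads the same on both strands. No match in a member overlapped another. The composite element was found in the windows of Asns and Pycr1, the response element core in those of Psph and Aldh18a1 and the E-box in that of Aldh18a1. Over all 32851 windows of the same length, 3.97% hold the composite element, 7.51% the response element core and 7.15% the E-box. The 4 windows with a match are printed 5′ to 3′ along the coding strand, which is the minus strand for all of them, with the matches in capitals. A match in the other orientation shows as its reverse complement.
Asns, chr6:7693160-7693459: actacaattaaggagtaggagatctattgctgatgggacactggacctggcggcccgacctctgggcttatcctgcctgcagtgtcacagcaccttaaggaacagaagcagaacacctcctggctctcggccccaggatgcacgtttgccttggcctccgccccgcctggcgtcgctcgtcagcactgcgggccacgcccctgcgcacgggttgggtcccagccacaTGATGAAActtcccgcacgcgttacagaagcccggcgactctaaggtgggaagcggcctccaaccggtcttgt
Pycr1, chr11:120643699-120643998: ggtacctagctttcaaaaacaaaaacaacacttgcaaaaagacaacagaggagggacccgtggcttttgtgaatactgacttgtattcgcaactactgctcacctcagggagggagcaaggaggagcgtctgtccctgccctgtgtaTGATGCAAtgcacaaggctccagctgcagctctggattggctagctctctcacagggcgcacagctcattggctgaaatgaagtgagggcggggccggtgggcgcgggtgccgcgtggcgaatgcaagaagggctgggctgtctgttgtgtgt
Psph, chr5:129787204-129787503: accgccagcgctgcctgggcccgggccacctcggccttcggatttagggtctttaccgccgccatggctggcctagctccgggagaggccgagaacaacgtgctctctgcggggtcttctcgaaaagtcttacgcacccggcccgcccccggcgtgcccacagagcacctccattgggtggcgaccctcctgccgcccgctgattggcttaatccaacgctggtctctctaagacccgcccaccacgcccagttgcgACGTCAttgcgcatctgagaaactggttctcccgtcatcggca
Aldh18a1, chr19:40588414-40588713: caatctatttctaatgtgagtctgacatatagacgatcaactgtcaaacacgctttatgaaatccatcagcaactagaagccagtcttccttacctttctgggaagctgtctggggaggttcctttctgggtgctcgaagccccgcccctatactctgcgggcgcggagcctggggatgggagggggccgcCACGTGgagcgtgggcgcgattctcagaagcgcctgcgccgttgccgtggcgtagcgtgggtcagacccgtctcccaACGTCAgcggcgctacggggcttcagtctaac
The match of Asns, TGATGAAA, spans bases -23 to -16 from the RefSeq start and that of Pycr1, TGATGCAA, bases -103 to -96. No match was found in the windows of Phgdh, Psat1, Shmt2 and Mthfd2. The windows of Mthfd2 and Psat1 lie inside those genes as GENCODE annotates them, with outermost starts at position 83325908 of chromosome 6 and 15947337 of chromosome 19. A match is a run of letters and does not show that a factor binds there.

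Asparagine synthesis is represented by Asns (chromosome 6, 7675169 to 7693254, minus strand, GRCm38), the enzyme that makes asparagine from aspartate with an amide group from glutamine. It had the highest level of the 10 enzymes, with a mean normalized count of 90074, or 44680 per kb of its longest coding transcript. The deposited mean and fold change imply fitted levels of 92933 in the control group and 87215 after Ehmt2 siRNA. Its log2 fold change was -0.09 (interval -0.30 to 0.11), which did not pass (adjusted p of the DESeq2 comparison 0.792). A fall to less than 81.4% of control lies outside that interval. Its fold change was the smallest of the 10 enzymes, and its window holds the composite element.

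The serine pathway runs from 3-phosphoglycerate through Phgdh, Psat1 and Psph, and the first and last of these enzymes fell in the authors' deposited table. Phgdh (chromosome 3, 98313170 to 98339990), the dehydrogenase that opens the pathway, had a mean normalized count of 19762. Its log2 fold change was -0.33 (interval -0.54 to -0.12, adjusted p of the DESeq2 comparison 0.0249). Psat1 (chromosome 19, 15904678 to 15947337), the aminotransferase of the middle step, had a mean of 53059 and the highest level per kb of the 3 (20275). Its log2 fold change of -0.15 (interval -0.31 to 0.01) did not pass. Psph (chromosome 5, 129765558 to 129787449), the phosphatase that releases serine, had a mean of 5975 and fell by 0.38 on the log2 scale (interval -0.53 to -0.22, adjusted p of the DESeq2 comparison 9.96e-05). Fitted levels of Psph were 6750 in the control group and 5200 after Ehmt2 siRNA. Once a trend of fold changes on transcript GC content was subtracted, Phgdh stood at -0.23 (adjusted p 0.225) and no longer passed, while Psph still did (-0.32, adjusted p 0.00171). The GC content of the transcript used was 57.2% for Phgdh and 53.7% for Psph.

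The mitochondrial folate enzymes Shmt2, Mthfd2 and Aldh1l2 take the carbon unit from serine and oxidise it, and 2 of the 3 fell. Shmt2 (chromosome 10, 127517123 to 127522444), which splits serine into glycine and a folate-bound carbon unit, had a mean normalized count of 20535. The authors' deposited table gives it a log2 fold change of -0.25 (interval -0.40 to -0.10, adjusted p of the DESeq2 comparison 0.0119), and its fitted level went from 22316 to 18753. With the GC trend removed it stood at -0.15 (adjusted p 0.289) and did not pass, its transcript having a GC content of 57.4%. Mthfd2 (chromosome 6, 83305691 to 83325908), the dehydrogenase and cyclohydrolase that follows, had a mean of 14639 and stood at -0.32 on the log2 scale. That is a larger fold change than the one of Shmt2, but its interval was wider (-0.56 to -0.07) and it did not pass (adjusted p of the DESeq2 comparison 0.0933). Aldh1l2 (chromosome 10, 83487450 to 83534140), which burns the formyl group of formyltetrahydrofolate to carbon dioxide with formation of NADPH, had the largest fold change of the 10. It fell by 0.54 on the log2 scale (interval -0.78 to -0.29, adjusted p of the DESeq2 comparison 0.000596), to 69.0% of its control level. It was also the enzyme with the lowest level, at a mean normalized count of 954, or 158 per kb of its longest coding transcript.

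Both enzymes of proline synthesis fell in the authors' deposited table. Aldh18a1 (chromosome 19, 40550257 to 40588463) encodes pyrroline-5-carboxylate synthase, which turns glutamate into the precursor of proline and ornithine. Its mean normalized count was 13442, and fitted levels were 15121 in the control group and 11764 after Ehmt2 siRNA. The log2 fold change was -0.36, with an interval of -0.51 to -0.21 (adjusted p of the DESeq2 comparison 0.000116). Pycr1 (chromosome 11, 120635712 to 120643769), the mitochondrial reductase of the last step, had a mean of 5503 and fell by 0.41 (interval -0.69 to -0.13, adjusted p of the DESeq2 comparison 0.0438). The larger fold change of Pycr1 came with the widest interval of the 10 enzymes, and without the GC trend it stood at -0.36 (adjusted p 0.122) and no longer passed. The window of Pycr1 holds the composite element, as that of Asns does.

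Cth (chromosome 3, 157894248 to 157925077), the lyase that makes cysteine from cystathionine, had a mean normalized count of 14168. Its log2 fold change of -0.22 (interval -0.37 to -0.06) just missed the threshold, at an adjusted p of the DESeq2 comparison of 0.0505. It passed when only genes with a mean of at least 10 were adjusted together (adjusted p 0.0384) and when the GC trend was subtracted (-0.28, adjusted p 0.00727). The GC content of its transcript, 44.2%, was the lowest of the 10.

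The 95% intervals of all 45 pairs of enzymes overlap, those of Aldh1l2 and Asns only at their ends. Differences between enzymes were not tested, and overlap does not show that they changed alike. The enzymes are spread over 6 chromosomes, and all 10 are annotated on the minus strand. Levels per kb of the longest coding transcript ran, from high to low, Asns (44680), Psat1 (20275), Phgdh (10439), Shmt2 (8971), Cth (7806), Mthfd2 (7021), Aldh18a1 (3811), Psph (3448), Pycr1 (1888) and Aldh1l2 (158). The enzymes with the highest levels, Asns and Psat1, were those with the smallest fold changes, and Aldh1l2, with the lowest level, had the largest. This is a description over 10 genes.

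**Figure D2:**
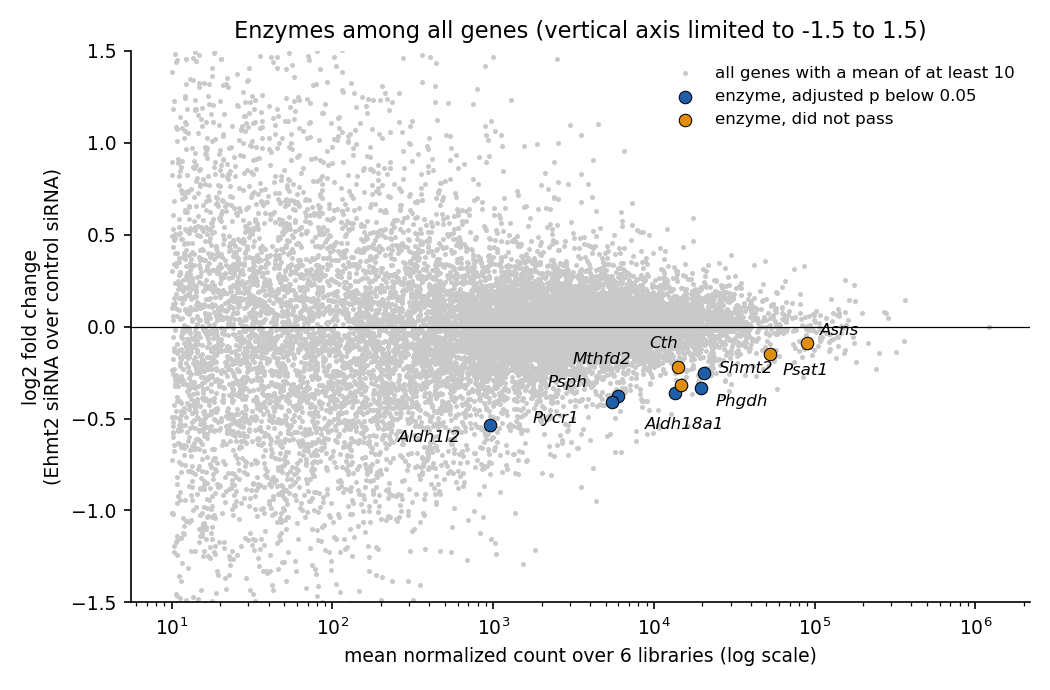
Mean normalized count over the 6 libraries (horizontal, log scale) against log2 fold change (vertical, limited to -1.5 to 1.5) for all genes with a mean of at least 10 (grey) and the 10 enzymes (blue where the adjusted p is below 0.05, orange where it is not). The enzymes lie below 0 and, Aldh1l2 apart, at means of 5503 to 90074.

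Some enzymes overlap genes on the opposite strand. The kit kept strand, but the sources used here do not say whether reads were counted by strand, and reads of such pairs may be mixed. Psph shares 452 of its 4329 exon bases with Cct6a, a chaperonin subunit gene whose mean normalized count was 52635 and whose log2 fold change was 0.01. Aldh1l2 shares 1056 of its 7503 exon bases with D10Wsu102e, which rose by 0.25 at a mean of 5562 (adjusted p of the DESeq2 comparison 0.0185). Shmt2 shares 32 exon bases with Ndufa4l2, at a mean of 85.7. The part of shared reads in the fold changes of these enzymes was not tested.

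The nearest tested protein-coding genes on either side of each enzyme were examined as well. Of these 20 neighbours 1 fell, 2 rose and 17 did not pass, with a median log2 fold change of -0.01. Over all tested genes 4.82% fell and 5.45% rose. Mob1a, whose lower annotated coordinate lies 0.108 kb from the outermost GENCODE start of Mthfd2, was at 0.0011 (interval -0.14 to 0.14). Beside Aldh18a1, Tctn3 was at -0.25 and did not pass (adjusted p of the DESeq2 comparison 0.0683). The neighbours of Psph, Nipsnap2 and Sumf2, were at -0.0024 and -0.02. Nxph4 next to Shmt2 fell by 1.51 at a mean normalized count of 17.6.

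Several of the enzymes have relatives that catalyse the same step elsewhere in the cell or act next to them, and none of the relatives named here passed. Shmt1, the cytosolic counterpart of Shmt2, was at 0.08 with a mean normalized count of 14791 (interval -0.05 to 0.22), and this interval does not overlap that of Shmt2. Aldh1l1, the cytosolic counterpart of Aldh1l2, was at -0.12 (interval -0.28 to 0.03). Pycrl, the cytosolic reductase now named Pycr3, was at -0.17 (-0.35 to 0.02), and its interval overlaps that of Pycr1. Mthfd1l, which acts after Mthfd2 in mitochondria, was at 0.04 (-0.05 to 0.14) and the cytosolic trifunctional Mthfd1 at 0.05 (-0.08 to 0.19). The interval of Mthfd2 lies apart from that of Mthfd1l and meets that of Mthfd1. Mthfd2l, the close relative of Mthfd2, had a mean normalized count of 27.0 and an interval of -0.76 to 1.05, which is too wide to place it. Cbs, which makes the cystathionine that Cth cleaves, was at 0.05 (-0.06 to 0.16), apart from the interval of Cth. Differences between an enzyme and its relative were not tested, and which intervals lie apart depends on the setting. With the GC trend removed those of Shmt2 (-0.29 to -0.00035) and Shmt1 (-0.06 to 0.21) overlap, and those of Mthfd2 and Mthfd1 lie apart. With the transcript length trend removed the intervals of Mthfd2 and Mthfd1l and those of Cth and Cbs overlap. With the trend on mean expression removed those of Aldh1l2 and Aldh1l1 do.

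**Figure D3:**
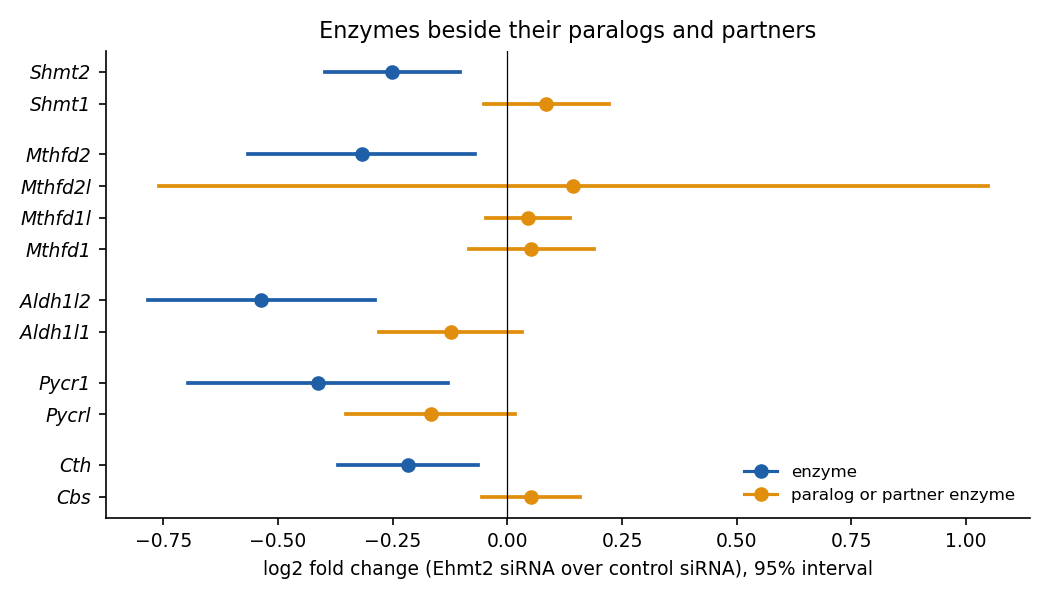
Log2 fold change with its 95% interval (horizontal axis) for 5 of the enzymes (blue) and their paralogs or partner enzymes (orange) in the authors' deposited table. The blue points lie between -0.54 and -0.22 and the orange ones between -0.17 and 0.14.

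Of 91 other genes of the same pathways 5 fell, 6 rose and 80 did not pass, with a median log2 fold change of 0.03. The share that fell, 5.49%, is near the 4.82% of all tested genes. The share of all tested genes that rose was 5.45%. None of 18 further folate enzymes passed the DESeq2 comparison, and at an unadjusted p under 0.05 the same comparison gave 2 higher, a share near the 10.2% of all tested genes. These were Ggh (0.26), which trims the glutamate tail of folates, and Mthfs (0.34), which returns formyl folate to the active pool. Ggh passed with the trend on mean expression removed (0.30, adjusted p 0.0431) or that on transcript length (0.30, adjusted p 0.0456). None of 9 further proline and ornithine enzymes passed either, and 1 was higher at an unadjusted p under 0.05. This was Oat, the ornithine aminotransferase, at 0.26.

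Among 14 further serine and glycine enzymes, Gcat, which makes glycine from a threonine product, fell by 0.23 (adjusted p of the DESeq2 comparison 0.00714). Without the GC trend it stood at -0.13 (adjusted p 0.257) and no longer passed. Dld (-0.12) and Amt (-0.08), parts of the glycine cleavage system, did not pass, but Dld did without the GC trend (-0.21, adjusted p 0.00123). Among 14 enzymes of aspartate, asparagine and glutamine, Gpt2, the mitochondrial alanine aminotransferase, fell by 0.47, Asrgl1, an asparaginase, by 0.25 and Got2, the mitochondrial aspartate aminotransferase, by 0.16. Without the GC trend Got2 stood at -0.09 (adjusted p 0.379) and no longer passed. Aspa, which cleaves N-acetylaspartate, rose by 1.66. Over all tested genes 4.82% fell and 5.45% rose.

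The cysteine, methionine and glutathione enzymes other than Cth rose in 4 of 25 cases and fell in 0. At an unadjusted p under 0.05 the DESeq2 comparison gave 4 lower and 4 higher. Over all tested genes 5.45% rose and 4.82% fell, and 10.2% were higher and 9.54% lower at that unadjusted p. Gclc, the catalytic subunit for the first step of glutathione synthesis, rose by 0.39 and Mat2a, which makes S-adenosylmethionine, by 0.30. Kyat3, an aminotransferase, rose by 0.64 and Mtap, which recovers methionine from a polyamine by-product, by 0.20. Of 13 enzymes of purine synthesis, a pathway that consumes folate-bound carbon units, Adss rose by 0.28 and Adssl1 fell by 1.22. Both encode adenylosuccinate synthases. Ppat (0.12) and Prps2 (0.13) did not pass. The purine and folate lists share Gart and Atic.

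**Figure D4:**
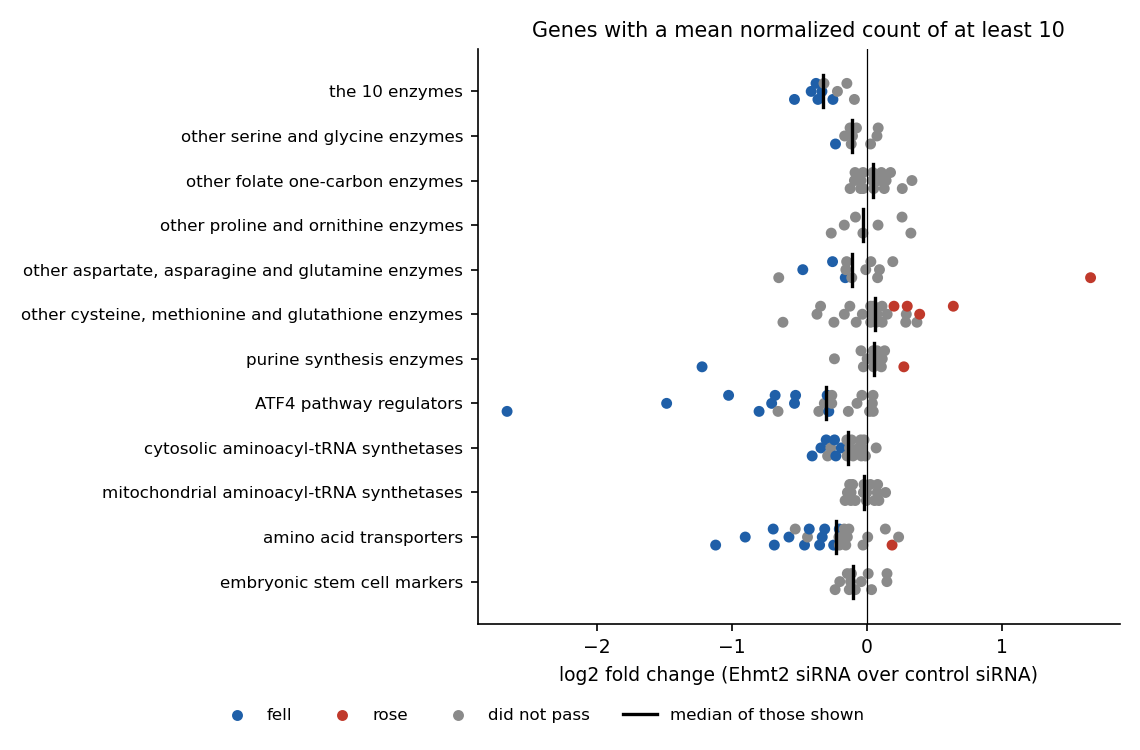
Log2 fold change (horizontal axis) of the 10 enzymes and of the genes of each list whose mean normalized count is 10 or more, one point per gene, with the median of those shown as a black bar. Blue points fell, red points rose and grey points did not pass. All 10 enzymes lie left of 0, while the other synthesis lists have genes on both sides.

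Other genes of the ATF4 pathway are known from the same comparison, and their values are set beside the enzymes without a test between lists. Over all tested genes 4.82% fell and 5.45% rose, and at an unadjusted p under 0.05 the shares were 9.54% lower and 10.2% higher. Atf4 itself fell by 0.29 (interval -0.41 to -0.18) at a mean normalized count of 27625. Of 22 listed regulators and targets 10 fell, none rose and 12 did not pass, with a median of -0.30. At an unadjusted p under 0.05 of the DESeq2 comparison 13 were lower and 0 higher. The eIF2 kinase genes Eif2ak1 (0.05), Eif2ak2 (0.04), Eif2ak3 (-0.07) and Eif2ak4 (0.05), also on that list, did not pass. Chac1, a glutathione-degrading enzyme, fell by 0.80, Trib3, a pseudokinase, by 0.68, and the transcription factor genes Cebpb and Atf5 stood at -1.48 and -0.53. Of 20 cytosolic aminoacyl-tRNA synthetases 6 fell and none rose (12 lower and 0 higher at an unadjusted p under 0.05 in the DESeq2 comparison). Those that fell include Wars (-0.40), Aars (-0.34), Yars (-0.24) and Nars (-0.23), the last of which charges tRNA with asparagine. None of the 17 mitochondrial synthetases passed, and at an unadjusted p under 0.05 the comparison gave 2 lower and 1 higher (shares near those of all tested genes, with Iars2 at 0.14, Tars2 at -0.12 and Fars2 at -0.16). Of 27 amino acid transporters 12 fell and 1 rose, and with the GC trend removed 7 fell and 0 rose. That removal also lowered the shares over all genes with a GC content, to 3.52% that fell and 4.40% that rose. Slc1a5, a glutamine and serine carrier, fell by 0.58, Slc7a11, the cystine carrier, by 0.43, Slc7a7 by 0.46 and Slc38a7 by 0.25. The transporter that rose, Slc38a2, is named after its value was seen and stood at 0.19.

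**Figure D5:**
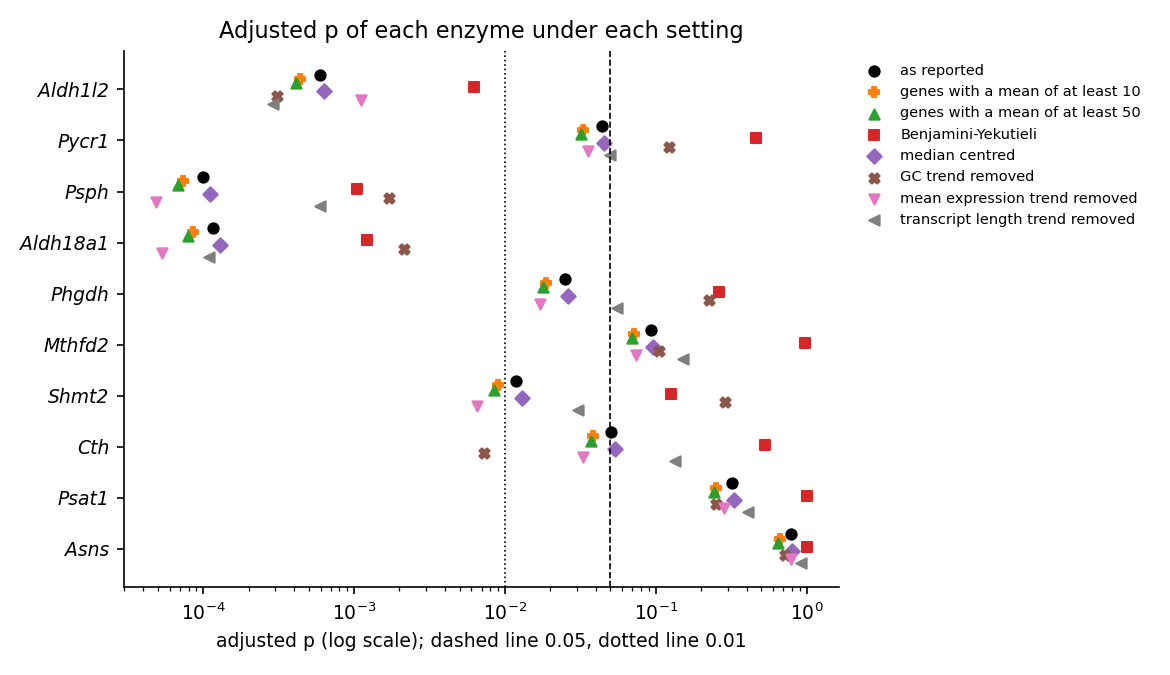
Adjusted p (horizontal, log scale) of each enzyme under each setting, with the dashed line at 0.05 and the dotted line at 0.01. Psph, Aldh18a1 and Aldh1l2 stay left of 0.01 under every setting shown, and Asns, Psat1 and Mthfd2 stay right of 0.05.

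Psph, Aldh18a1 and Aldh1l2 passed under all 8 alternative settings, and Asns, Psat1 and Mthfd2 under none. The settings changed which genes were adjusted together, the threshold or the adjustment method, or recentred the fold changes or removed their trend on GC content, mean expression or transcript length. The log2 fold changes of all 10 enzymes were negative under each of the 8. With the GC trend removed 4 enzymes fell: Psph, Aldh18a1 and Aldh1l2, which had fallen without it, and Cth, which had not passed. Phgdh, Shmt2 and Pycr1 no longer passed.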

How the data were processed

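RNA was measured in 3 control siRNA and 3 Ehmt2 siRNA libraries made with a stranded polyA kit, per the labels' protocols. Tools named in the submitters' processing notes are STAR, Trimmomatic 0.36, FastQC and DESeq2, and builds are GRCm38 and mm10. The counter, annotation and settings, not given in the sources used here, are unknown. Per gene, the authors deposited an unadjusted p-value, a log2 fold change and a signal, per the file headers. The signal is headed baseMean and was read here as the mean of size-factor-normalized counts over 6 libraries. The deposited table has 25239 genes, of which 4778 were at 0 and 20461 had a p-value. With no counts per library, no count model was fitted here and precision could not be derived from depth.

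Benjamini-Hochberg adjustment ran over all 20461 genes, with a threshold of 0.05 (Python 3.11.15, statsmodels 0.14.6). Standard errors were the size of the log2 fold change over the normal quantile of p, which assumes a Wald test. Fitted group levels were derived from the mean and fold change for groups of 3. The steps were tested on simulated data.

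All 10 enzymes are named, with their relatives, the nearest tested neighbours and up to 4 genes per list with the smallest p and a mean of at least 10. Some genes that this rule selects are not reported here. Atf4 is named outside that rule, as the factor the enzymes were chosen by. The eIF2 kinase genes are also named outside that rule, after their values were seen. The enzymes and lists were chosen with earlier results of these data known. Positions, transcript lengths and GC content (97.2% of tested genes) are from GENCODE M21 on GRCm38, and promoter sequences from RefSeq GRCm38.p6. Trends were removed with a lowess curve (fraction 0.3, genes with a mean of at least 50).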

Additional observations from a re-analysis of the deposited data

How the results depend on the processing

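The count of enzymes that fell was 6, and 3 with an adjusted p below 0.01 or with the Benjamini-Yekutieli method, 4 with the GC trend removed, 5 with the transcript length trend removed, 6 after median centring, and 7 with the trend on mean expression removed or with only genes of a mean of at least 10 or 50 adjusted together. None rose under any of these. Of the other pathway genes, 5 fell, against 3 at an adjusted p below 0.01 and 2 with Benjamini-Yekutieli. At the threshold of 0.01, Phgdh (-0.33, adjusted p 0.0249), Pycr1 (-0.41, 0.0438) and Shmt2 (-0.25, 0.0119) did not pass, nor did they with Benjamini-Yekutieli (0.262, 0.460 and 0.125) or with the GC trend removed (-0.23, -0.36 and -0.15). Phgdh also did not pass with the length trend removed (-0.30, adjusted p 0.0555). Cth (-0.22) passed among genes with a mean of at least 10 (adjusted p 0.0384) or 50 (0.0370), with the trend on mean expression removed (-0.23, adjusted p 0.0329) and with the GC trend removed (-0.28). The causes were not tested. Over all tested genes, 987 fell and 1116 rose, against 601 and 726 at the threshold of 0.01 and 499 and 625 with Benjamini-Yekutieli. No paired analysis was possible because the table holds no values per library. For the same reason leaving out a replicate and a count model were not run, and whether 1 library decides a fold change is unknown.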
